A study of Mus musculus with 6 samples.

Results

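The interleukin-1 family genes and their receptors were examined in cultured mouse epidermal keratinocytes from a knockout study of the zinc finger transcription factors Ovol1 and Ovol2. The set of 9 genes holds the ligand genes Il1a, Il1b, Il18 and Il33, the receptor antagonist gene Il1rn, and the receptor genes Il1r1, Il1r2, Il1rl1 and Il1rap. They were chosen by gene symbol, with results of the same 6 arrays already known, and for each symbol the brightest probe set that carries only that symbol was to be used. Of the 9 genes, 7 had such a probe set, 1 each, out of 19938 genes measured in this way. Il1r1, the signalling receptor for interleukin-1, and Il1rl1, the receptor for the Il33 product, were not analysed here. Because the choice was made with these arrays in view, the adjusted p-values below describe these arrays and are not independent evidence.

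Each of the 3 groups had 2 Affymetrix arrays, and each array held pooled RNA of 2 mice of strain C57BL/6, taken as E18.5 embryos and labelled female. The double knockout group (DKO) is given in the labels as Ovol2flox/-;K14-Cre; Ovol1-/-. K14-Cre acts in cells that use the keratin 14 promoter, basal keratinocytes in skin. Loss of the floxed Ovol2 copy thus depends on that promoter, whereas the other copy is labelled as missing. The Ovol1 KO group is given as Ovol1-/-. The control group is given as Ovol2flox/+ combined with either Ovol1+/- or K14-Cre, so that control pools may already lack 1 copy of Ovol1 or, where Cre is present, of Ovol2. The labels do not say which of these genotypes went on which control array. All arrays came from cultures that had been given calcium, which starts keratinocyte differentiation, after 2 to 5 days and were kept for another 3 to 5 days. The arrays of a group are named biological replicates in the labels.

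Interleukin-1 family cytokines are made by barrier epithelia and act as early signals of damage. The products of Il1a and Il33 are alarmins that are held inside the cell, partly in the nucleus, and act once released, whereas the products of Il1b and Il18 are made as precursors that inflammatory caspases cut. Most members signal through a ligand-binding receptor that pairs with the shared accessory chain encoded by Il1rap, then through the adaptor Myd88 and the Irak kinases to NF-kB. The Il1rn product blocks the interleukin-1 receptor, and the Il1r2 product is a decoy that binds ligand without signalling.

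Several facts of the whole series bear on the values below. Ovol1 lay between 10.58 and 10.59 in the DKO arrays, between 10.22 and 10.53 in the Ovol1 KO arrays and between 9.85 and 10.27 in the control arrays, as normalized log2 intensity. Ovol2 lay between 8.32 and 8.71 in DKO and averaged 8.999 in Ovol1 KO (SD 0.0082, n = 2), and its control arrays were at 8.12 and 8.82, so neither targeted gene marked its knockout. Whether either probe set lies in a deleted part is not given in the sources used here, and the groups are called here as labelled. Xist, which is expressed from the inactive X chromosome of female cells, had levels of 12.12 and 12.26 in DKO, of 4.59 in Ovol1 KO 1, of 11.97 in Ovol1 KO 2 and of 4.71 and 4.65 in control. The female label thus did not match 3 arrays, and genotype and sex-linked expression cannot be told apart between DKO and control. None of the 6 keratinocyte markers (Krt5, Krt14, Trp63, Itga6, Dsg3 and Perp) was called between DKO and control. Their log2 fold changes ran from -0.16 for Dsg3 to 0.75 for Trp63 (limma adjusted p = 0.061). Krt14, which changed least, lay between 13.61 and 13.67 on all 6 arrays.

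The promoter stretches of the genes that were called between DKO and control are shown because these genes changed in opposite directions. They are the last 100 bases before the annotated start in RefSeq (build GRCm38.p6), 5′ to 3′ on the strand of the gene, and capitals mark a match to the AP-1 motif, the site of Fos and Jun factors. Il1a is on the minus strand of chromosome 2 and the window is chr2:129309973-129310072. It lies within the annotated span of the gene, which reaches position 129310186, so the start used is not the outermost. Il18 is on the plus strand at chr9:50554600-50554699. Il33 has 2 annotated starts on the plus strand, with windows at chr19:29925013-29925112 and chr19:29945690-29945789.
Il1a: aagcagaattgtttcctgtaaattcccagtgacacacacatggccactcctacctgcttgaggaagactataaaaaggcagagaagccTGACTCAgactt
Il18: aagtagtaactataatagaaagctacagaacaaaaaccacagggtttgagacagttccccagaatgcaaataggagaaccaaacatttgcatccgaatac
Il33, first start: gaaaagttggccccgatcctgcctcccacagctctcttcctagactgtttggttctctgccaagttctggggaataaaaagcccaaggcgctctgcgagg
Il33, second start: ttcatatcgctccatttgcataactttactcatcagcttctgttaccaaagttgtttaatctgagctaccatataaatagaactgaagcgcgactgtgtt

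Both strands of the 250 bases before each annotated start were searched for 4 motifs, which are the OVO motif CCGTTA, the AP-1 motif TGANTCA, the Zeb-type E2 box CACCTG and the NF-kB motif. The single match among the 4 windows of Il1a, Il18 and Il33 was the AP-1 match of Il1a, which begins 12 bases before the start. Il1rn had an AP-1 match that begins 141 bases before the first of its 3 annotated starts. The OVO motif, the E2 box and the NF-kB motif had 0 matches in the windows of the 7 measured genes. Of 32851 promoter windows of the same length, 2.18% held the OVO motif, 6.75% the AP-1 motif, 17.2% the E2 box and 7.25% the NF-kB motif. A match is a run of letters and no evidence of binding, and the lack of one concerns these windows alone.

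In DKO against control keratinocytes, Il33 and Il18 rose and Il1a fell, while Il1b, Il1rn, Il1r2 and Il1rap did not pass the test. Il33 was 10.4-fold higher, Il18 was 3.01-fold higher and Il1a was 14.6-fold lower in DKO. Thus 2 of the 7 genes were called higher, against 0.943% of all genes, and 1 of 7 was called lower, against 2.26% of all genes, and since the members were chosen with this comparison known nothing is read from these shares. The median log2 fold change of the 7 genes was 0.03, beside 0.02 over all 19938 genes. These calls are from limma with Benjamini-Hochberg adjustment over all genes, and an adjusted p below 0.05 was called. All fold changes were taken after adding 16 to each intensity, which understates changes of dim genes. In pooled cultures, fewer cells of a type and less RNA per cell cannot be told apart.

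**Figure D1:**
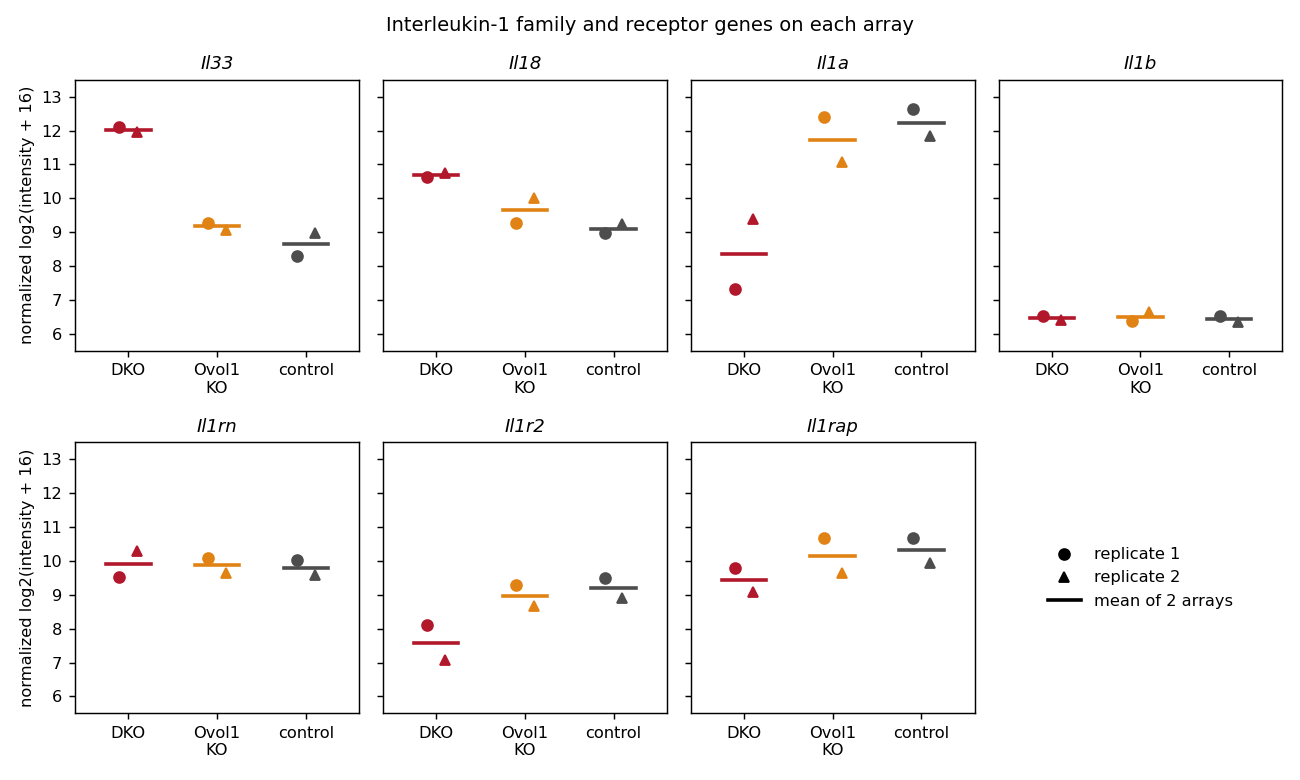
Normalized log2(intensity + 16) of the 7 measured genes (vertical axis) on each array, with circles for replicate 1, triangles for replicate 2 and a bar at the mean of the 2 arrays of DKO, Ovol1 KO and control. The DKO arrays lie above all others for Il33 and Il18 and below all others for Il1a and Il1r2, whereas Il1b lies between 6.36 and 6.63 on every array.

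Il33, the alarmin that acts on innate lymphoid cells and mast cells, measured 12.09 and 11.95 in DKO, 9.28 and 9.08 in Ovol1 KO, and 8.29 and 8.98 in control, as normalized log2 intensity. Both DKO arrays lay far above the other 4, and the DKO pair differed less than the control pair. As deposited, before any further normalization, the intensities were 4341 and 3868 in DKO, 624.5 and 528.8 in Ovol1 KO, and 288.1 and 479.7 in control. The log2 fold change of Il33 was 3.38 in DKO against control (SE 0.25, limma adjusted p = 0.0017, 95% interval 2.78 to 3.99). Against Ovol1 KO it was 2.84 in DKO (SE 0.25, limma adjusted p = 0.0035, 95% interval 2.24 to 3.44). Xist differed between the DKO and control arrays as well, and the part of sex-linked differences in the Il33 change was not tested. Against Ovol1 KO 2 alone, the Ovol1 KO array with high Xist, the log2 fold change of Il33 in DKO was 2.94, a value that rests on 1 Ovol1 KO array.

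Il18, whose product is a caspase-processed cytokine that promotes interferon-gamma production by lymphocytes, had values of 10.64 and 10.74 in DKO, 9.28 and 10.02 in Ovol1 KO, and 8.97 and 9.23 in control. The 3 groups did not overlap, and both Ovol1 KO arrays lay between the DKO and control arrays. The log2 fold change of Il18 in DKO against control was 1.59 (SE 0.27, limma adjusted p = 0.030, 95% interval 0.95 to 2.23). Without DKO 1, DKO 2 or control 1 it lost its call, at adjusted p = 0.14, 0.14 and 0.068, with log2 fold changes of 1.64, 1.54 and 1.46. Relative to Ovol1 KO the value in DKO was 1.04 (SE 0.27, limma adjusted p = 0.14). It was 0.67 against Ovol1 KO 2 alone, and the part of sex-linked differences in the Il18 change was likewise not tested.

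Il1a, which keratinocytes store and release on injury, had values of 7.33 and 9.38 in DKO, 12.39 and 11.06 in Ovol1 KO, and 12.62 and 11.84 in control. Both DKO arrays were lower than the other 4, but they differed from each other by more than any other pair of replicates of this gene. The deposited intensities of Il1a were 131.7 and 621.3 in DKO, 5290 and 2124 in Ovol1 KO, and 6274 and 3645 in control. The log2 fold change in DKO against control was -3.87 (SE 0.70, limma adjusted p = 0.038, 95% interval -5.54 to -2.20). The direction was the same without each array, and the value ran from -4.89 without DKO 2 to -2.85 without DKO 1. The call was lost without DKO 1 (adjusted p = 0.12), without Ovol1 KO 1 or Ovol1 KO 2 (adjusted p = 0.058 and 0.056), with only the 4 arrays compared (adjusted p = 0.058), and with robust eBayes (adjusted p = 0.14). Relative to Ovol1 KO the log2 fold change in DKO was -3.37 (SE 0.70, limma adjusted p = 0.072). It was -2.71 against Ovol1 KO 2 alone, a value that rests on 1 Ovol1 KO array. The part of sex-linked differences in the Il1a change was not tested either.

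Il1b, the inflammasome-dependent ligand gene, had values of 6.52 and 6.42 in DKO, 6.38 and 6.63 in Ovol1 KO, and 6.52 and 6.36 in control. The groups overlapped, and all 6 values lay below 6.84, the first quartile of all normalized values. The files hold no detection call, so these levels were not separated from background. The log2 fold change in DKO against control was 0.03 with a 95% interval from -0.35 to 0.41.

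Il1rn, the receptor antagonist gene, had values of 9.52 and 10.30 in DKO, 10.08 and 9.65 in Ovol1 KO, and 10.02 and 9.59 in control. DKO 1 was the lowest and DKO 2 the highest of the 6 arrays, so that the DKO pair enclosed the other groups. Its log2 fold change in DKO against control was 0.11 with a 95% interval from -0.63 to 0.85, so that a moderate change in either direction lay within it.

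Il1r2, the decoy receptor gene, had values of 8.10 and 7.08 in DKO, 9.29 and 8.67 in Ovol1 KO, and 9.50 and 8.90 in control. Both DKO arrays lay below the other 4. The log2 fold change in DKO against control was -1.61 (SE 0.40, limma adjusted p = 0.0997, 95% interval -2.55 to -0.66). With Ovol1 KO as the comparison it was -1.39 (SE 0.40, limma adjusted p = 0.18). Neither passed the threshold over all genes. With replicate number added to the model as a block, a pairing that the labels do not give, both passed (limma adjusted p = 0.0086 and 0.016).

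Il1rap, the shared accessory chain gene, had values of 9.79 and 9.09 in DKO, 10.68 and 9.64 in Ovol1 KO, and 10.67 and 9.95 in control. The DKO arrays lay below both control arrays, but DKO 1 was higher than Ovol1 KO 2. The log2 fold change in DKO against control was -0.87 (SE 0.42, limma adjusted p = 0.43, 95% interval -1.87 to 0.13). With replicate number added to the model as a block, the limma adjusted p was 0.041. In all, 3 of the 7 genes had both DKO arrays below both control arrays, which held for 21.5% of all genes. For 2 of the 7 both lay above, which held for 23.1%. Nothing is read from these shares, as the members were chosen with these arrays known.

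**Figure D2:**
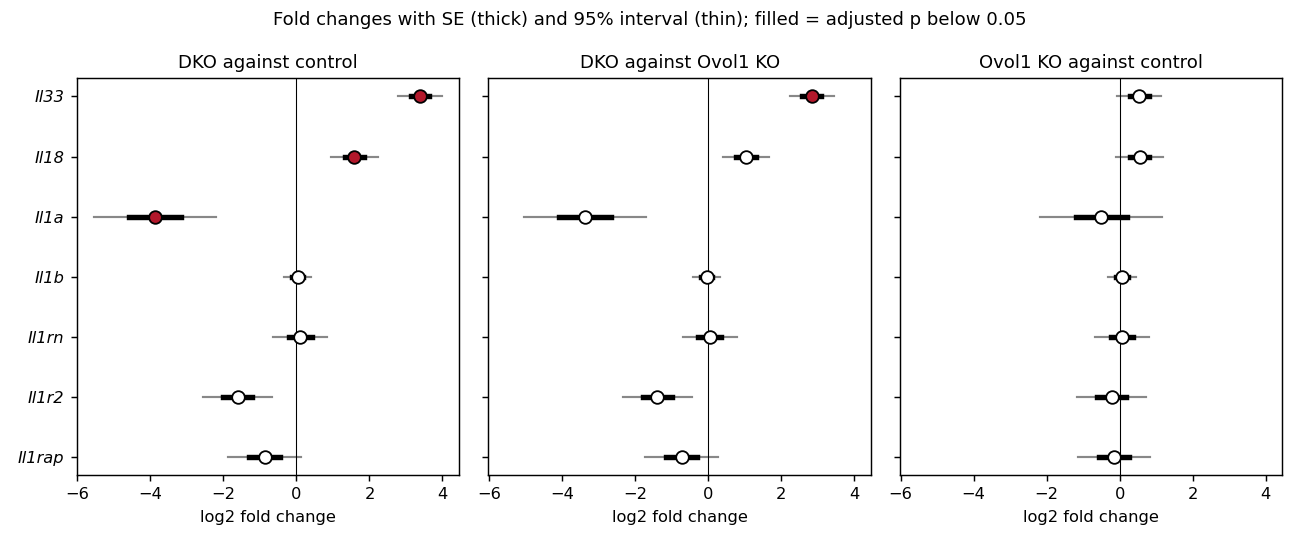
Log2 fold changes (horizontal axis) of the 7 genes in the 3 comparisons, with thick lines for 1 SE to each side, thin lines for the 95% interval and filled points for a limma adjusted p below 0.05. Il33, Il18 and Il1a are filled in DKO against control, Il33 alone in DKO against Ovol1 KO and none in Ovol1 KO against control.

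DKO against Ovol1 KO addresses the added Ovol2 knockout as labelled, but the groups also differ in labelled K14-Cre and in Xist on Ovol1 KO 1. Here 1 of 7 genes was called higher (Il33), against 0.657% of all genes, and 0 of 7 were called lower, against 1.49% of all genes. As the members were chosen with these arrays known, nothing is read from these shares. Of the 7 genes, 4 had an unadjusted p below 0.05 in this comparison, as had 2646 of all 19938 genes. Both comparisons share the DKO arrays, so that they do not bear on each other independently. The median log2 fold change was -0.04 over the 7 genes, beside 0.09 over all genes.

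In Ovol1 KO against control, in which the groups also differ in the possible Ovol2flox/+ and K14-Cre background of control and in Xist on Ovol1 KO 2, limma called 0 of the 7 genes, and 0% of all genes were called in either direction. At an unadjusted p below 0.05 there were 0 of the 7 genes and 162 of all 19938. The largest of the 7 differences was 0.55 for Il18 (SE 0.27, 95% interval -0.09 to 1.19), followed by 0.54 for Il33 (SE 0.25, 95% interval -0.06 to 1.14). Both Ovol1 KO arrays were above both control arrays for these 2 of the 7 genes, which held for 5.80% of all genes, and below for 0 of the 7, against 18.3% of all genes. With the members chosen beforehand from these arrays, nothing is read from these shares. The interval of Il1a, from -2.17 to 1.17, was the widest, and a change of 2-fold in either direction lay within it. The narrowest was that of Il1b, from -0.31 to 0.44.

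The remaining ligand genes of the family did not pass. Of 5 such genes, 0 rose, 0 fell and 5 did not pass in DKO against control, with a median log2 fold change of -0.28. In this comparison 0.943% of all genes were called higher and 2.26% lower, which is the background to this and the later lists. As the lists were chosen with results of these arrays known, nothing is read from their counts. Il1f6, the older symbol of Il36a, which encodes a ligand linked to psoriatic inflammation, had values of 7.14 and 8.37 in DKO, 9.43 and 8.98 in Ovol1 KO, and 9.84 and 9.12 in control. Both DKO arrays lay below the other 4, with a log2 fold change of -1.72 against control (SE 0.44, limma adjusted p = 0.11). Il1f5, the older symbol of the antagonist gene Il36rn, had a log2 fold change of -0.59 (limma adjusted p = 0.62). That of Il1f9, or Il36g, was -0.28 (limma adjusted p = 0.74), and that of Il1f10 was -0.21 (limma adjusted p = 0.68). Il1f9 lay between 11.24 and 12.05 on all 6 arrays.

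Among 7 further receptor and decoy genes, 0 rose, 0 fell and 7 did not pass in DKO against control (median -0.15). Il18r1, which encodes the ligand-binding chain of the receptor for the Il18 product, had values of 5.62 and 5.39 in DKO, 7.86 and 6.92 in Ovol1 KO, and 8.32 and 7.07 in control. The DKO arrays were the lowest, at a log2 fold change of -2.19 against control (SE 0.45, limma adjusted p = 0.055). These DKO values lay near 5.54, the 5th percentile of all normalized values, as did Il1rapl1 on all 6 arrays. With no detection call, such levels were not separated from background. The log2 fold changes were -0.38 for Il1rapl1 (limma adjusted p = 0.19) and -0.49 for the inhibitory receptor gene Sigirr (limma adjusted p = 0.41). For Il1rl2, the receptor gene of the Il36 ligands, it was 0.46 (limma adjusted p = 0.30), and its 2 DKO arrays, at 11.15 and 11.01, lay above the 10.43 and 10.81 of the control arrays.

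Of 13 genes for maturation and release of the cytokines, 0 rose, 1 fell and 12 did not pass in DKO against control (median 0.07). The fall was that of Capn2, a subunit gene of calpain, the protease that cuts the interleukin-1 alpha precursor. Capn2 lay at 11.98 and 12.06 in DKO, 12.47 and 12.36 in Ovol1 KO, and 12.51 and 12.56 in control, a log2 fold change of -0.52 (SE 0.10, limma adjusted p = 0.0396). This call was lost without any 1 of the 6 arrays (adjusted p from 0.064 to 0.20), while the value stayed between -0.55 and -0.48. It was also lost with no variance trend (adjusted p = 0.15), with robust eBayes (adjusted p = 0.0503) and with only the 4 arrays compared (adjusted p = 0.067). Among the others, the log2 fold change was -0.84 for the DNA sensor gene Aim2 (limma adjusted p = 0.28), 0.40 for Capn1 (limma adjusted p = 0.44) and -0.30 for Casp8 (limma adjusted p = 0.45). The caspase gene Casp1, described because its product cuts the Il18 precursor, had values of 8.16 and 7.85 in DKO, 5.80 and 7.998 in Ovol1 KO, and 6.04 and 7.33 in control. The first replicates of Ovol1 KO and control were thus low and the other 4 arrays high.

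Of 22 measured receptor signalling genes, 1 rose, 1 fell and 20 did not pass in DKO against control (median -0.19). Both DKO arrays lay below both control arrays for 10 of the 22 and above for 4, against 21.5% and 23.1% of all genes. The list was chosen with results of these arrays known, so nothing is read from these shares. Peli2, which encodes a Pellino ubiquitin ligase that acts on Irak proteins, had values of 11.38 and 11.28 in DKO, 8.60 and 9.52 in Ovol1 KO, and 8.61 and 8.98 in control. In DKO the log2 fold change of Peli2 was 2.54 against control (SE 0.32, limma adjusted p = 0.010). Against Ovol1 KO it was 2.27 (SE 0.32, limma adjusted p = 0.019). Irak2, a kinase-like gene of the receptor complex, had values of 8.66 and 8.71 in DKO, 9.81 and 9.46 in Ovol1 KO, and 9.81 and 9.77 in control. Both DKO arrays were the lowest, and the log2 fold change was -1.10 in DKO against control (SE 0.19, limma adjusted p = 0.033). Irak3, an inhibitor of the same complex, had a log2 fold change of -0.73 (limma adjusted p = 0.093), and the adaptor gene Tab2 had -0.47 (limma adjusted p = 0.098). The Peli2 call was lost without DKO 1 or DKO 2 (adjusted p = 0.070 and 0.061), and that of Irak2 without any 1 of the DKO or control arrays (adjusted p from 0.083 to 0.15). Between DKO and Ovol1 KO, 1 of the 22 rose, which was Peli2, and 0 fell, against 0.657% and 1.49% of all genes.

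Of 22 genes that respond to interleukin-1 and NF-kB, 1 rose, 2 fell and 19 did not pass in DKO against control. Over all genes, 0.943% were called higher and 2.26% lower. The median log2 fold change of the 22 genes was -0.44, beside 0.02 over all genes. Of the 22, 12 had both DKO arrays below both control arrays and 4 had both above, against 21.5% and 23.1% of all genes. The list was chosen with results of these arrays known, so nothing is read from this median or these shares. Cxcl5, a neutrophil-attracting chemokine gene, had values of 5.75 and 5.52 in DKO, 8.64 and 7.89 in Ovol1 KO, and 9.27 and 8.34 in control. Cxcl1, another such chemokine gene, had 6.04 and 7.07 in DKO, 10.28 and 8.86 in Ovol1 KO, and 10.53 and 9.39 in control. The DKO arrays were the lowest for both, with log2 fold changes against control of -3.17 for Cxcl5 (SE 0.36, limma adjusted p = 0.0075) and -3.40 for Cxcl1 (SE 0.59, limma adjusted p = 0.032). Bcl3, which encodes a nuclear regulator of NF-kB, had values of 11.30 and 11.37 in DKO, 10.62 and 10.67 in Ovol1 KO, and 10.64 and 10.48 in control, a log2 fold change of 0.78 in DKO against control (SE 0.14, limma adjusted p = 0.040). Csf3, the gene of a granulocyte growth factor, had -1.85 (limma adjusted p = 0.055), with DKO values of 4.98 and 4.81 near the low end of the scale.

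These 3 calls were lost under some settings. Without DKO 1 or DKO 2, Cxcl5 had log2 fold changes of -3.29 and -3.06 (adjusted p = 0.0501 and 0.054). Cxcl1 had -2.89 and -3.92 (adjusted p = 0.18 and 0.077), and it also lost its call with robust eBayes (adjusted p = 0.067). Bcl3 lost its call without any 1 of the 6 arrays (adjusted p from 0.076 to 0.18), while its log2 fold change ran from 0.70 to 0.86, and with only the 4 arrays compared (adjusted p = 0.073). In DKO against Ovol1 KO, 0 of the 22 genes rose and 1 fell, against 0.657% and 1.49% of all genes. The gene that fell was Cxcl5, with a log2 fold change of -2.63 (SE 0.36, limma adjusted p = 0.018). The calls of Cxcl5 and Peli2 against Ovol1 KO were lost without DKO 1, DKO 2 or Ovol1 KO 1. In Ovol1 KO against control, limma called 0 genes of these 5 lists and 0 of all genes.

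**Figure D3:**
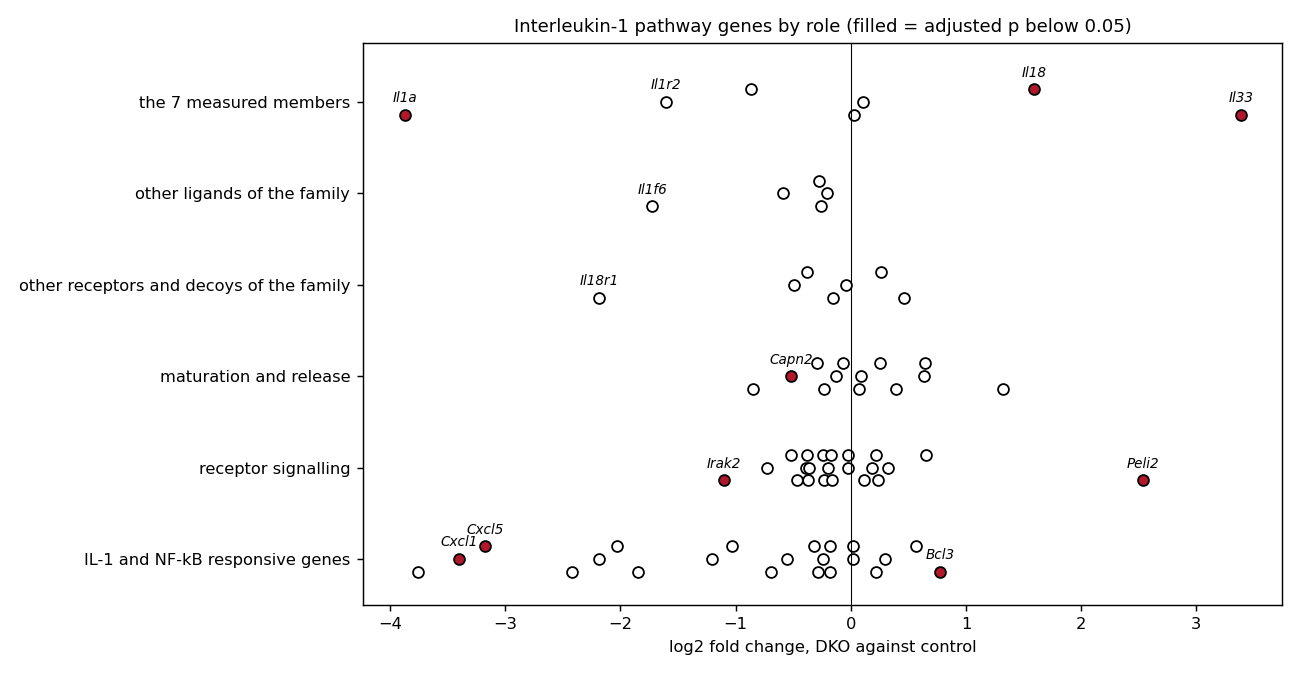
Log2 fold changes in DKO against control (horizontal axis) for the 7 measured genes and for the 5 lists of other pathway genes, 1 point per gene and filled where the limma adjusted p was below 0.05. The filled points span -3.87 for Il1a to 3.38 for Il33, and most points of the responsive list lie left of 0, with a median of -0.44. The members and lists were chosen with results of these arrays known.

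Marker genes of cells that can carry these cytokines or receptors were read on the same arrays. Of 9 mast cell markers 1 fell in DKO against control, Kit, which melanocytes also express, and 8 did not pass. The summed mast cell marker intensity lay between 816 and 866 in DKO, between 1002 and 1045 in Ovol1 KO and between 905 and 947 in control. This sum includes Kit, at 6.78 and 6.13 in DKO, 8.60 and 8.58 in Ovol1 KO, and 8.075 and 7.70 in control. The log2 fold changes of the other mast cell markers in DKO against control ran from -0.23 for Ms4a2 to 0.55 for Mcpt4. The median over the 9 mast cell markers was 0.07. No marker was called in this comparison among 8 macrophage, 6 Langerhans and dendritic cell, 5 T cell and pan-leukocyte, 6 neutrophil, 6 endothelial and 6 melanocyte genes. Of 8 fibroblast markers 1 fell, Pdgfra, and 7 did not pass. The leukocyte marker Ptprc lay between 6.69 and 6.97 on all arrays, and the Langerhans cell marker Cd207 between 6.33 and 6.59, both below the first quartile of 6.84 or close to it. No marker was at an intensity of 0 on any array.

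Some summed marker levels moved with group or with replicate. The summed neutrophil markers reached 679 and 1145 in DKO, against 483 and 673 in Ovol1 KO and 511 and 652 in control. Of these, Cxcr2 had a log2 fold change in DKO against control of 1.39, Ly6g of 0.58 and Mpo of 0.27. Elane had 0.12, Csf3r 0.10 and Ngp -0.10. The summed macrophage markers were 4701 and 5124 in DKO, 3468 and 5704 in Ovol1 KO, and 4224 and 6605 in control. Cd68, the brightest macrophage marker, lay between 11.37 and 12.52 over all arrays. The summed Langerhans and dendritic cell markers ran from 520 to 623 over all arrays. T cell and pan-leukocyte markers summed to between 451 and 609, and fibroblast markers to between 1323 and 1930. The summed endothelial markers were 493 and 496 in DKO, 1449 and 806.5 in Ovol1 KO, and 1940 and 784 in control. Of these 6 markers, Kdr had a log2 fold change in DKO against control of -2.78 and Pecam1 of -1.12, while Cdh5, Tek, Tie1 and Emcn lay between -0.04 and 0.28, and the list median was -0.03. Melanocyte markers summed to 1408 and 686 in DKO, 5463 and 613 in Ovol1 KO, and 3918 and 692 in control, so that the first replicate was the higher one in each group. The part of such cells in the changes of Il1a, Il18 and Il33 was not tested.

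The genes whose pattern over the 6 arrays was most like that of a member were listed for Il1a and Il33, the members with an SD above 1 over the arrays, among the 494 genes with such a spread that were left of 503 once predicted genes were dropped by name. For Il1a they were Prdm1 (Pearson r = 0.996), Dusp10 (r = 0.994) and Hmox1 (r = 0.992). Prdm1 encodes a transcriptional repressor, Dusp10 a phosphatase and Hmox1 a heme oxygenase. Hmox1, for example, had values of 9.50 and 10.47 in DKO, 11.99 and 11.15 in Ovol1 KO, and 12.31 and 11.91 in control. For Il33 they were Xpnpep2 (r = 0.988), an aminopeptidase gene, the metalloproteinase gene Mmp27 (r = 0.988) and Syt12 (r = 0.986). Mmp27 had 11.95 and 11.94 in DKO, 7.09 and 7.48 in Ovol1 KO, and 6.78 and 7.38 in control. These coefficients describe 6 arrays that share their 3 groups and were the highest among the genes compared.

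**Figure D4:**
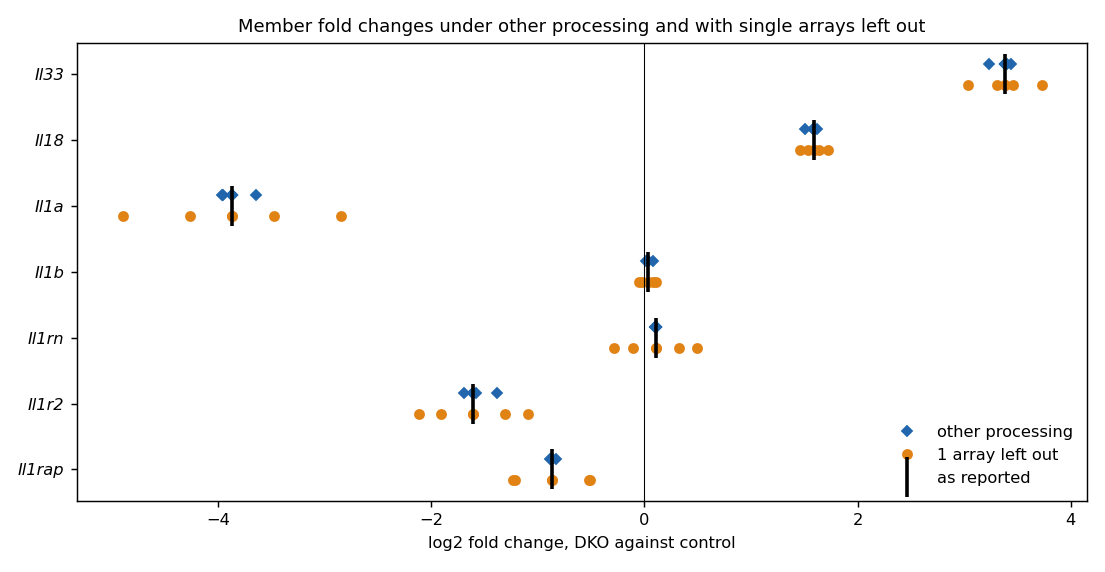
Log2 fold changes in DKO against control (horizontal axis) of the 7 genes as reported (vertical bars), under other processing (diamonds) and with single arrays left out (circles). Il33 stays between 3.04 and 3.73, while Il1a runs from -4.89 to -2.85.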

How the data were processed

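The members and gene lists were chosen with earlier results of these data known. The authors deposited 1 intensity per probe set and array on a linear scale, and PLIER 2.0 and Affymetrix Expression Console 1.1.1 are listed in the submitters' processing notes without a stated role. How background was corrected and arrays were normalized is not given in the sources used here. There were 35556 probe sets, and the median intensity per array ran from 174.2 to 203.6. There is no detection call, and the number of arrays limits the precision.

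Each intensity was increased by 16, log2-transformed and quantile-normalized over all probe sets. Only probe sets with 1 gene symbol were tested, as 19938 genes, with the brightest probe set per gene. The test was limma 3.58.1 (R 4.3.3), with a mean per group over all 6 arrays, a variance trend and Benjamini-Hochberg adjustment over all genes. One spread with 3 residual degrees of freedom served all groups, and it was drawn towards the trend with 3.89 prior degrees of freedom. The procedure was run on simulated data with independent noise for each gene and array. That setting holds no differences shared by a replicate number or by sex, so nothing about these arrays is concluded from it. The named genes are the 7 measured members and, per pathway list, up to 4 genes with the smallest p in DKO against control, called genes first. They also include the 3 genes most correlated with each member whose SD over the arrays was above 1. Casp1 was chosen after its values were seen. Alternatives were offsets of 1 and 64, deposited values, leaving out the dimmest 30% of genes, the mean over probe sets, other eBayes settings, only the arrays compared, a replicate block and each array left out. For the pathway genes these alternatives were added after seeing the data.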

Additional observations from a re-analysis of the deposited data

How the results depend on the processing

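Il33 kept its direction and its call in DKO against control and in DKO against Ovol1 KO under all 15 alternatives, with log2 fold changes from 3.04 to 3.73 and from 2.74 to 2.94. In DKO against control the count of members called lower (1, Il1a) was 0 with robust eBayes and with only the 4 arrays compared, and 2 with the replicate block, under which Il1r2 (adjusted p = 0.0086) and Il1rap (adjusted p = 0.041) passed and Il1a did not (adjusted p = 0.052). With single arrays left out that count ran from 0 to 1, and the count called higher from 1 to 2. Between DKO and Ovol1 KO the count called lower (0) was 1 with the deposited values, with only the 4 arrays compared and with the replicate block, and 0 to 1 with single arrays left out. The gene was Il1r2 under the block (adjusted p = 0.016) and Il1a otherwise, which passed without DKO 2 (adjusted p = 0.044), control 1 or control 2 (both 0.016). Replicate numbers were not taken as pairs. Deviations from the group means correlated over genes at 0.69 between Ovol1 KO and control, 0.15 between DKO and control and 0.09 between DKO and Ovol1 KO. Ovol1 KO 1 correlated with control 1 at 0.9937 and Ovol1 KO 2 with control 2 at 0.9917, above 0.978 within Ovol1 KO and 0.9786 within control. DKO 1 correlated at 0.9405 with control 1 and at 0.9526 with control 2. The reported fit counts differences shared by a replicate number as spread. The block moved the calls among all genes in DKO against control to 301 higher and 768 lower, beside 188 and 451 as reported. Leaving out DKO 1 gave 67 and 191, leaving out DKO 2 gave 120 and 189, and leaving out control 1 gave 177 and 285. Between DKO and Ovol1 KO (131 and 298 as reported) they were 225 and 580 with the block, 239 and 499 with only the 4 arrays compared, 48 and 147 without DKO 1, 91 and 141 without DKO 2, 23 and 65 without Ovol1 KO 1, 67 and 150 without Ovol1 KO 2, 235 and 503 without control 1, and 228 and 506 without control 2. In Ovol1 KO against control (0 and 0) they were 1 and 3 without Ovol1 KO 1. Signs changed for uncalled members with single arrays left out. In DKO against control, Il1b ran from -0.052 to 0.113 and Il1rn from -0.28 to 0.50. Between DKO and Ovol1 KO, Il1b ran from -0.16 to 0.089 and Il1rn from -0.35 to 0.43. In Ovol1 KO against control the ranges were -1.16 to 0.16 for Il1a, -0.059 to 0.19 for Il1b, -0.53 to 0.10 for Il1r2, -0.67 to 0.37 for Il1rap and -0.15 to 0.28 for Il1rn, and, among the pathway genes, -1.10 to 0.32 for Cxcl1, -0.33 to 0.021 for Irak2 and -0.20 to 0.73 for Peli2. Il1b was absent from the fit without the dimmest 30% of genes. The cause was not tested. When 1 array of a group was left out, the remaining one was assumed to vary like the others.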

Other observations

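Further genes of the responsive list, chosen after their values were seen, were also low in DKO without passing the test. Cxcl2, a neutrophil-attracting chemokine gene, had values of 5.60 and 5.99 in DKO, 10.39 and 8.38 in Ovol1 KO, and 10.58 and 8.52 in control (log2 fold change in DKO against control -3.75, limma adjusted p = 0.062). Ptgs2, the inducible prostaglandin synthase gene, had 9.99 and 11.86 in DKO, 13.16 and 12.42 in Ovol1 KO, and 13.18 and 13.05 in control (-2.19, limma adjusted p = 0.10). Tnf had 6.51 and 6.65 in DKO, 9.17 and 7.87 in Ovol1 KO, and 9.42 and 7.79 in control (-2.02, limma adjusted p = 0.15). Csf2 had 5.97 and 5.45 in DKO, 8.49 and 6.80 in Ovol1 KO, and 9.21 and 7.05 in control (-2.42, limma adjusted p = 0.19). For Cxcl2, Tnf and Csf2 the second replicates of Ovol1 KO and control lay below the first by more than 1 log2 unit. Other uncalled genes of the list went either way. The log2 fold change against control was 0.57 for S100a8, 0.30 for Icam1, 0.22 for S100a9 and 0.02 for both Ccl2 and Ccl20. The DKO values of Ccl2 were 6.11 and 9.67. The remaining uncalled genes of the list were below 0, among them Tnfaip3 at -1.21, Tslp at -1.03, Nfkbia at -0.69 and Lcn2 at -0.55. Over the 22 genes, 12 had both DKO arrays below both control arrays and 4 had both above, against 21.5% and 23.1% of all genes. With the list chosen knowing results of these arrays, nothing is read from these shares.

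Casp4, the mouse gene of a lipopolysaccharide-sensing caspase, separated the arrays by replicate number in all 3 groups. It lay at 8.17 and 9.16 in DKO, 6.43 and 9.86 in Ovol1 KO, and 6.82 and 9.25 in control, and its log2 fold change in DKO against control was 0.63 (limma adjusted p = 0.90). Cxcr2, which encodes the receptor for Cxcl1, Cxcl2 and Cxcl5 and stood in the neutrophil list, had values of 7.59 and 8.95 in DKO, 6.90 and 6.99 in Ovol1 KO, and 6.65 and 7.11 in control (1.39, limma adjusted p = 0.17). Kdr, a growth factor receptor gene of the endothelial list, had 6.79 and 6.65 in DKO, 9.95 and 8.63 in Ovol1 KO, and 10.49 and 8.51 in control (-2.78, limma adjusted p = 0.090). The median over the 6 endothelial markers was -0.03, and 4 of them lay between -0.04 and 0.28.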
